A study of Mus musculus with 8 samples.

Results

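The difference of ribosome enrichment between cells of the medial prefrontal cortex (mPFC) labelled from VTA and cells labelled from NAC was taken for every gene as (VTA pull-down minus VTA input) minus (NAC pull-down minus NAC input). It was computed on the log2 values of all 8 arrays of the series, from probe sets that carry exactly 1 gene symbol. Of 41345 probe sets, 23521 met that rule and covered 22180 genes, of which 11712 were bright enough on at least 2 arrays to be tested. A positive value means that the pull-down stood higher over its input after VTA injection than after NAC injection, and a negative value the reverse. A value of 1 on this scale is a ratio of 2 between the enrichments.

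All 4 groups came from mice with a Cre-dependent GFP tag on ribosomes that received CAV2-Cre, a canine adenovirus carrying Cre recombinase, in NAC or in VTA, abbreviations that in this field stand for the nucleus accumbens and the ventral tegmental area. The NAC pull-down and the VTA pull-down (2 arrays each) held mPFC RNA recovered with GFP-trap, a GFP-binding reagent, and the NAC input and the VTA input (2 arrays each) held mPFC RNA without that step. The labels give no strain, age or sex and do not name the tagged protein. They also do not trace arrays to animals, so each p-value rests on the spread between arrays alone, which may be technical. An uninjected or Cre-free pull-down was not analysed here, and the description field of the inputs reads the same as that of the pull-downs.

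Ribosome pull-down recovers the RNA that ribosomes of labelled cells were carrying, and dividing by the input removes part of what differs between the dissected tissues themselves. Cortical projection neurons fall into classes: pyramidal tract neurons of layer 5 send axons out of the telencephalon to the midbrain, thalamus, hindbrain and spinal cord, while intratelencephalic neurons of layers 2/3, 5 and 6 reach other cortex and the striatum, of which the nucleus accumbens is the ventral part. The transcription factors Fezf2 and Bcl11b (Ctip2) are textbook determinants of the pyramidal tract class.

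The deposited values shared a scale, with array medians over the named genes of 5.86 to 5.98. The first principal component, with 50.4% of the variance, set all pull-downs against all inputs, and the second, with 24%, set the NAC arrays against the VTA arrays. Markers of cell types other than projection neurons were lower in the pull-downs in part. After VTA and NAC injection, 10 and 9 of 26 interneuron markers, 14 and 13 of 19 oligodendrocyte markers, 9 and 12 of 20 astrocyte markers and 11 and 17 of 22 microglia markers were lower than input, against 25.9% and 8.01% of all genes. Examples that passed in both were Gad2 of inhibitory neurons by -0.73 after VTA and -0.79 after NAC injection, Mog of oligodendrocytes by -0.60 and -0.92, and Aqp4 of astrocytes by -0.66 and -0.69 (limma, all adjusted p at most 0.0117). The endothelial gene Cldn5, at 0.00 and -0.42, passed in neither, and Gad1 and Cx3cr1 passed after NAC injection alone. The excitatory neuron genes Slc17a7 and Camk2a, at -0.08 and -0.23 after VTA and at -0.02 and -0.23 after NAC injection, did not pass the test in either target. Projection neuron lists held lower members too, after VTA and NAC injection 4 and 1 of 10 layer 5 intratelencephalic markers and 5 and 3 of 16 layer 2/3 markers. The counts were 6 and 1 of 17 for layer 6 and subplate markers and 1 and 4 of 21 for layer 5 pyramidal tract markers. Among 16 glutamatergic neuron genes they were 2 and 0. In such bulk RNA, fewer cells of a type and less RNA per cell cannot be told apart.

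Enrichment was shared in part between the targets. Across the 11712 genes the VTA and NAC enrichments, which share no array, correlated at r = 0.69, a description across genes that are not independent replicates. In the VTA pull-down 637 genes were higher than in its input (5.44% of those tested) and 3034 lower (25.9%); in the NAC pull-down 508 were higher (4.34%) and 938 lower (8.01%). Of the 954 genes called in both targets, 943 changed in the same direction and 11 in opposite directions. These 943 were 65.2% of the genes called with NAC and 25.7% of those called with VTA. The difference of enrichment had a median of -0.09 and a standard deviation of 0.23 over the genes tested, and 32.1% of genes lay above 0. That share depended on the scaling: it was 41.9% with each array centred on its median and 49.5% after quantile normalization. Each difference combines 4 group means, so its standard error (SE; median 0.16) was 1.41 times that of a single enrichment (median 0.11).

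Only 8 genes passed the test of the difference (limma, adjusted p under 0.05; 0.0683% of genes tested): 7 were lower with VTA (0.0598%) and 1 was higher (0.00854%). At an unadjusted p under 0.05 the counts on the values as deposited were 1130 lower (9.65%) and 279 higher (2.38%). Centring every array on its median again gave 8 calls, split as 2 higher and 6 lower, and 7 of the 8 genes were the same. Quantile normalization gave 2 calls, both lower. With no filter on dim genes, which tests 22180 genes, Xirp2 was the only call, and the adjusted p of the other 7 lay between 0.35 and 0.386. Xirp2 was also the only call with same-numbered arrays blocked, within target or over all groups.

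**Figure D1:**
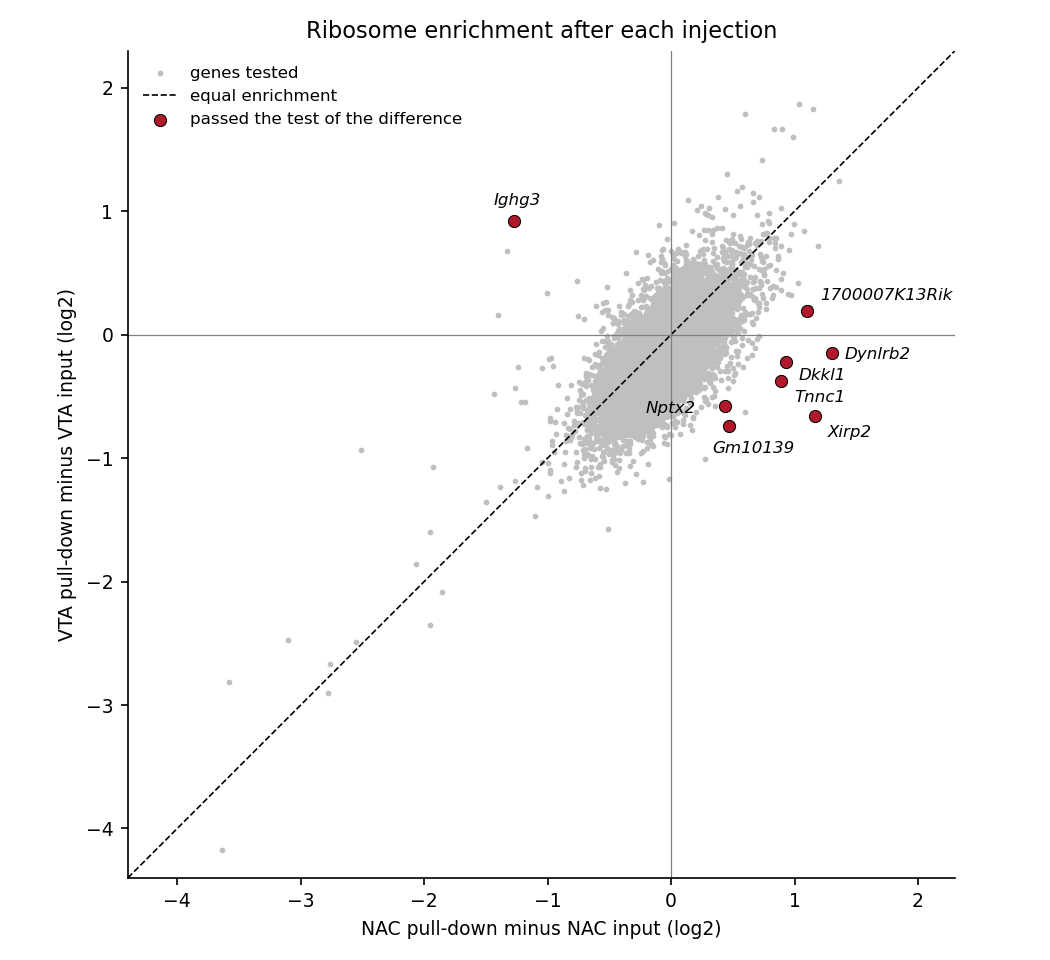
Each grey point is 1 of 11712 genes; the horizontal axis is the NAC pull-down minus NAC input and the vertical axis the VTA pull-down minus VTA input, both log2 differences of means of 2 arrays. The 8 red genes passed the test of the difference; 7 lie under the dashed line of equal enrichment and Ighg3 lies above it, and the 2 enrichments correlate at r = 0.69 across genes.

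Xirp2, which codes for an actin-binding protein of the xin repeat family known from striated muscle, had the largest called difference among genes whose 4 group means all reached the array medians. Its level was 8.51 and 8.41 in the NAC pull-downs, 7.25 and 7.34 in the NAC inputs, 7.08 and 6.96 in the VTA pull-downs and 7.72 and 7.63 in the VTA inputs. The NAC pull-downs were thus the highest arrays and the VTA pull-downs the lowest, with no overlap between any of the 4 groups. The enrichment was 1.17 after NAC injection and -0.66 after VTA injection, and the difference was -1.83 (SE 0.14; 95% interval -2.13 to -1.52; limma adjusted p = 0.00116), a 3.55-fold lower ratio with VTA. The pull-downs differed by -1.44 between targets (adjusted p = 3.09e-05), while the inputs differed by 0.39 in the other direction (adjusted p = 0.123). A second probe set of Xirp2, with a mean of 3.99 over the arrays, far under the array medians, gave -0.15, and the mean of both probe sets gave -0.99 (adjusted p = 0.045).

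Nptx2 codes for neuronal pentraxin 2, a secreted protein that neurons induce with activity and that gathers AMPA receptors at excitatory synapses. It read 9.13 and 9.11 in the NAC pull-downs against 8.73 and 8.63 in their inputs, and 7.85 and 7.87 in the VTA pull-downs against 8.39 and 8.49 in theirs. Within each target the pull-down and input arrays did not overlap, and the order was opposite: enrichment 0.44 with NAC and -0.58 with VTA. The difference was -1.02 (SE 0.13, adjusted p = 0.0323), and the pull-downs alone differed by -1.26 (adjusted p = 4.03e-05) against -0.24 for the inputs.

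Tnnc1, the calcium-binding troponin C of slow skeletal and cardiac muscle, arrived at its difference another way. Its NAC inputs, at 6.78 and 6.70, were the lowest arrays; the VTA inputs stood at 7.80 and 7.72, the NAC pull-downs at 7.70 and 7.56 and the VTA pull-downs at 7.28 and 7.49. The difference of enrichment was -1.27 (SE 0.15, adjusted p = 0.0251), from 0.89 with NAC and -0.37 with VTA. The inputs differed by 1.02 between targets (adjusted p = 0.000463) and the pull-downs by -0.25 (adjusted p = 0.283), so most of this value lay in the inputs.

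Dkkl1, a dickkopf-like secreted protein gene that stood on the list of layer 2/3 markers, read 9.15 and 9.02 in the NAC pull-downs, 8.23 and 8.07 in the NAC inputs, 8.40 and 8.35 in the VTA pull-downs and 8.58 and 8.60 in the VTA inputs. Its NAC pull-downs were above every other array. Enrichment was 0.93 with NAC and, without passing the test, -0.22 with VTA, and the difference was -1.15 (SE 0.14, adjusted p = 0.0251).

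The 2 remaining genes with measured levels in all groups carry provisional symbols in the array annotation. For 1700007K13Rik the NAC pull-downs, both at 7.49, were above the other 6 arrays, which lay between 6.37 and 6.75; the difference was -0.91 (SE 0.12, adjusted p = 0.0394). For Gm10139 the VTA pull-downs, at 6.70 and 6.43, were below the other 6 arrays, which lay between 6.83 and 7.44; the difference was -1.21 (SE 0.17, adjusted p = 0.0394), from 0.47 with NAC and -0.74 with VTA.

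For the last 2 called genes 3 of the 4 group means lay under the array medians, so the sizes are not exact. Both entered the test through the group in which they were high, Dynlrb2 through the NAC pull-downs and Ighg3 through the NAC inputs, so the filter favoured a difference in both. With the stricter filter neither was tested. Dynlrb2, a dynein light chain gene of the roadblock family known from ciliated cells, read 6.63 and 6.31 in the NAC pull-downs and 5.15 to 5.57 on the other 6 arrays, with a difference of -1.45 (SE 0.17, adjusted p = 0.0251). Ighg3, the constant region of an immunoglobulin G heavy chain, was the only called gene with a positive difference, at 2.19 (SE 0.29, adjusted p = 0.0323). Its levels were 6.02 and 6.14 in the NAC inputs, 4.55 and 5.08 in the NAC pull-downs, 3.21 and 3.45 in the VTA inputs and 4.53 and 3.96 in the VTA pull-downs. Most of its value lay in the inputs, which differed by -2.76 between targets against -0.57 for the pull-downs, and its second probe set, also dim, gave 0.08.

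**Figure D2:**
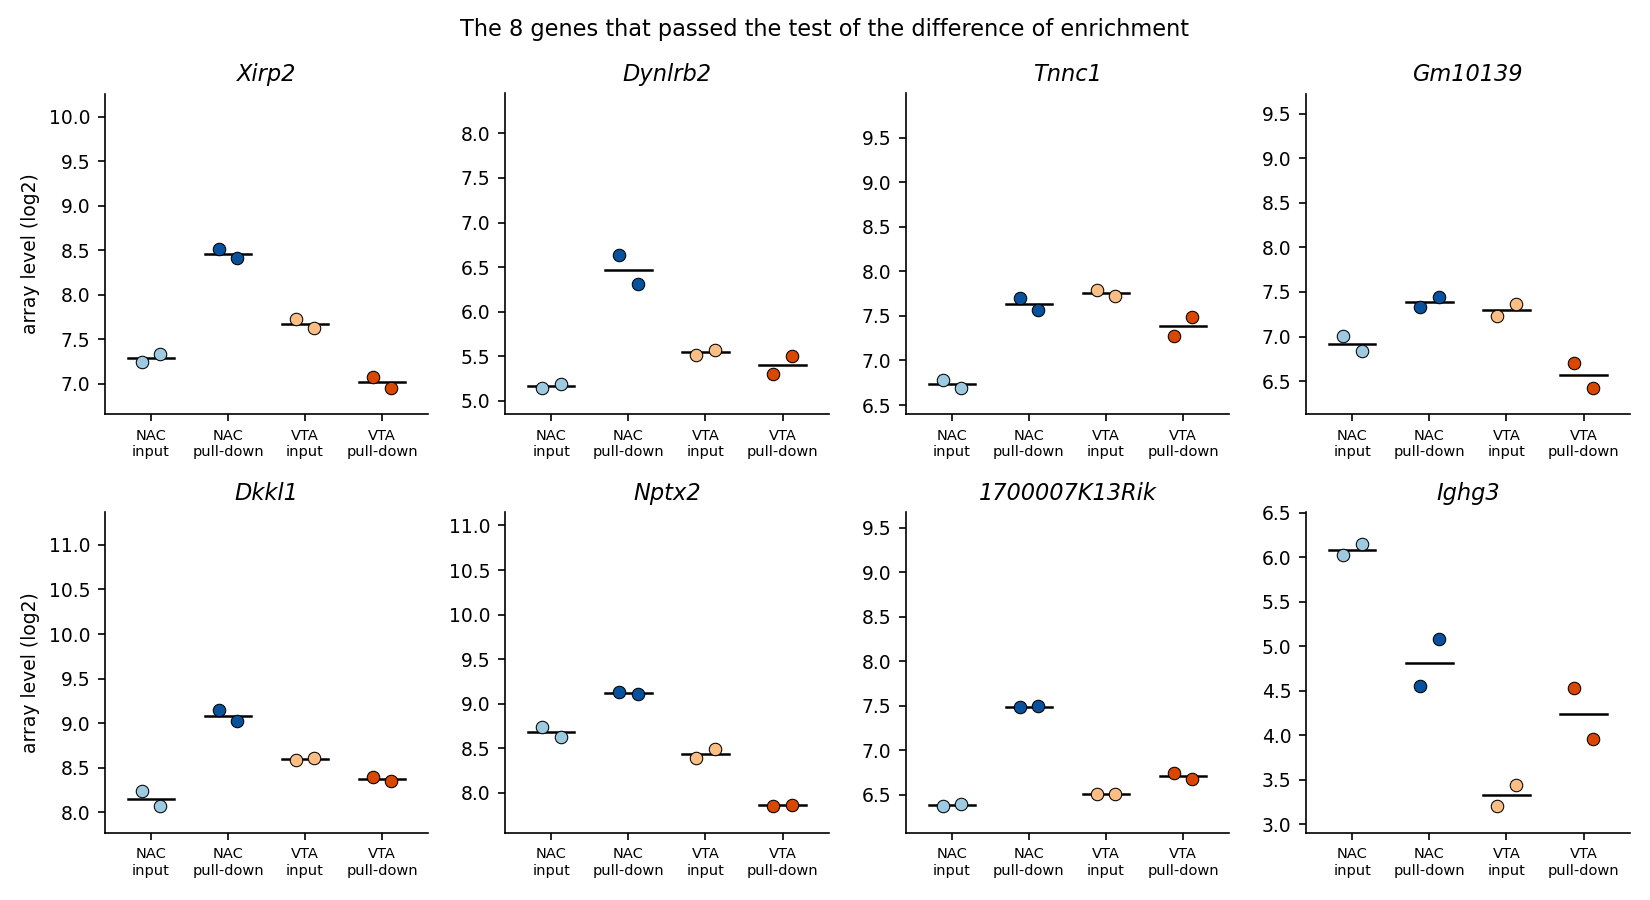
Array levels (log2) of the 8 called genes in the 4 groups; each point is 1 array, each line the mean of 2 arrays, and all panels span the same range of log2 units. In Xirp2, Dkkl1, 1700007K13Rik and Dynlrb2 the NAC pull-downs stand above all other arrays, in Nptx2 and Gm10139 the VTA pull-downs stand below all others, in Tnnc1 the NAC inputs are the lowest, and in Ighg3 the VTA inputs are.

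Calls other than that of Xirp2 were not kept in every fit with an array left out. Each such fit leaves 1 array in a group and 3 residual degrees of freedom against 4. A lost call therefore does not single out the array left out. The difference of Nptx2 lay between -1.07 and -0.97 in these fits, and that of 1700007K13Rik between -0.95 and -0.87. The widest range was that of Ighg3, from 1.90 to 2.47. With each of the 8 arrays left out in turn, Xirp2 remained called every time (adjusted p 0.00347 to 0.0322; difference -1.89 to -1.77). Of the others, Dynlrb2 remained called in 3 of the 8 fits, Tnnc1 and Ighg3 in 2, Dkkl1 in 1, and Gm10139, Nptx2 and 1700007K13Rik in 0. Their signs did not turn in any of these fits. The number of genes called was 4 without NAC pull-down 1, 5 without NAC pull-down 2, 1 without VTA pull-down 1, 8 without VTA pull-down 2, 1 without either NAC input, 1 without VTA input 1 and 2 without VTA input 2.

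Promoter windows of 300 bases (250 before to 50 after the start, RefSeq, GRCm38.p6) were found for 5 of the 8 called genes. Of these windows 3 are shown, those of Xirp2, Tnnc1 and Dkkl1, which had measured levels in all groups. Capitals mark matches to the E-box CANNTG, the site of basic helix-loop-helix factors, and to the MEF2 site, the A/T-rich site of a factor family of muscle and neurons. A TATA box (TATAAA, both strands) was searched too; the other 2 motifs read the same on both strands.
Xirp2, chr2:67445752-67446051, + strand: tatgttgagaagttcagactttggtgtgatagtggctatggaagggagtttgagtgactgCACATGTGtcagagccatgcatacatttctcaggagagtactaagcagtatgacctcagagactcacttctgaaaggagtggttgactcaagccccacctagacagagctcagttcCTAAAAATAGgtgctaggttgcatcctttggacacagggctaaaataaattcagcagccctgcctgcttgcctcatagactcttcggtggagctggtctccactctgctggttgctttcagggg
Tnnc1, chr14:31208062-31208361, + strand: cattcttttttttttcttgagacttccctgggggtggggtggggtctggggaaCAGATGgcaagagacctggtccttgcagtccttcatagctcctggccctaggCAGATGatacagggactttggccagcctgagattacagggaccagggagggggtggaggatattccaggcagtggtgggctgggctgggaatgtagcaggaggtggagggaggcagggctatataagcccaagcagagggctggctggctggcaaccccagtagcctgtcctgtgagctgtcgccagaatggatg
Dkkl1, chr7:45211834-45212133, - strand: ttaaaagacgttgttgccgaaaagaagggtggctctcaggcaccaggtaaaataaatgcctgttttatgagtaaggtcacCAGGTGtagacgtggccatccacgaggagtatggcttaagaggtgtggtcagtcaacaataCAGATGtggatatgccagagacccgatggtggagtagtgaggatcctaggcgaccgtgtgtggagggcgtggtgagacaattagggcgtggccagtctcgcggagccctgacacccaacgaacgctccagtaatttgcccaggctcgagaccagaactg
Each of the 3 windows held 2 E-boxes, which overlap each other in Xirp2, and 72.3% of the 32851 promoters in the table held at least 1. The window of Xirp2 held 1 MEF2 site, beginning at position -74, which 3.19% of promoters hold. No window held the exact letters TATAAA, present in 13.6% of promoters, and other forms of the TATA box were not searched. These matches describe letters in the window and not bound sites.

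Short of the threshold, the genes with the smallest p-values and measured levels in all groups included on the negative side Blnk, an adaptor of B cell receptor signalling, at -0.82 (SE 0.13, adjusted p = 0.0849), Ptgfrn at -0.89, Cnih3, an auxiliary subunit of AMPA receptors, at -0.82, Nrn1, the activity-regulated surface protein neuritin, at -0.76, the signalosome subunit gene Cops9 at -0.81 and 1700001G17Rik at -0.71 (adjusted p from 0.128 to 0.171). Blnk read 8.32 and 8.30 in the NAC pull-downs and 7.16 to 7.70 on the other 6 arrays. Nrn1 read 11.67 and 11.50 in the NAC pull-downs, 10.85 and 10.88 in the VTA pull-downs and 11.18 to 11.32 in the 4 inputs, which did not separate by target. With variances moderated along an intensity trend, Blnk, Ptgfrn, Cnih3, Nrn1 and Cops9 passed the test, with adjusted p from 0.00178 to 0.0391.

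On the positive side the smallest p among genes with measured levels in all groups belonged to Igfbp4, a secreted binding protein of insulin-like growth factors, at 0.86 (SE 0.14, adjusted p = 0.0849). Its pull-downs read 8.45 and 8.45 with NAC and 9.22 and 9.22 with VTA, while its 4 inputs lay between 8.62 and 8.83. It was 1 of the 11 genes called in opposite directions in the single enrichments, 0.50 with VTA and -0.36 with NAC. Next were Tcerg1l at 0.96, the POU-domain transcription factor gene Pou3f1 at 0.98, the G protein gamma subunit gene Gng7 at 0.76 and the sulfotransferase gene Chst8 at 0.72 (adjusted p from 0.12 to 0.22). A dim gene, Clec7a, the beta-glucan receptor of myeloid cells, lay nearer the threshold at 0.91 (adjusted p = 0.0526; 0.0451 with arrays centred). It was above the array medians in the NAC inputs alone. With the intensity trend, Igfbp4, Tcerg1l, Pou3f1 and Gng7 passed (adjusted p from 0.00732 to 0.0235). Tcerg1l, Pou3f1 and Chst8 stood on the list of layer 5 pyramidal tract markers.

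The other positive genes included noncoding RNAs and RNA-binding proteins. Ptcd3 (1.57), a pentatricopeptide repeat protein gene, the translation initiation helicase gene Eif4a1 (0.98), the Y RNA gene Rny1 (0.96), Snord22 (1.56), Mir5125 (0.88), the RNA helicase gene Ddx5 (0.60) and the Fc receptor chain gene Fcer1g (0.57) had adjusted p from 0.232 to 0.26. For Ptcd3 and Eif4a1 a second probe set gave -0.41 and -0.41, the opposite sign. The VTA inputs of Ptcd3 stood apart from each other, at 8.22 and 9.18, as did those of Snord22, at 6.71 and 7.78. Without VTA input 2, Ptcd3 passed the test at 2.05 (adjusted p = 0.0319), and its mean over both probe sets gave 0.58. With the intensity trend Ptcd3, Rny1 and Eif4a1 passed (adjusted p from 0.0229 to 0.0421).

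The 11 genes called in opposite directions in the single enrichments were Xirp2, Tnnc1, Nptx2, Gm10139 and Ighg3, which also passed the test of the difference, and Igfbp4, Ptgfrn, Cyp11a1, Necab1, Tgm3 and Mrnip, which did not. In 9 of them the NAC pull-down was higher and the VTA pull-down lower than its input; Igfbp4 and Ighg3 were the reverse. Necab1, a calcium-binding protein gene of neurons, read 11.38 and 11.28 in the NAC pull-downs, 10.83 and 10.75 in the VTA pull-downs and 10.95 to 11.18 in the inputs, with a difference of -0.69 (SE 0.13, adjusted p = 0.175; 0.00198 with the intensity trend). Cyp11a1, which makes pregnenolone from cholesterol in steroid synthesis, stood at -0.73, Tgm3 at -0.81 and Mrnip at -0.71 (adjusted p from 0.175 to 0.212).

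The difference of enrichment is also the VTA-minus-NAC difference of the pull-downs less that of the inputs, and these 2 comparisons share no array. Between the pull-downs 49 genes were higher with VTA (0.418%) and 240 lower (2.05%); between the inputs 14 were higher (0.12%) and 162 lower (1.38%). Across genes the 2 target differences correlated at r = 0.52, again as a description. Among the 1130 genes with a negative difference at an unadjusted p under 0.05, the pull-down part was the larger in 753 (66.6%), and among the 279 with a positive difference in 163 (58.4%), against 53.9% of all genes tested.

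For markers of layer 5 pyramidal tract neurons the median difference of enrichment, 0.36, was the highest of the 36 gene lists examined, against -0.09 for all genes. The lists were chosen with earlier results of these data known, so this rank is a description alone. Of 24 listed genes, 22 had a probe set and 21 were tested; Fam84b, Diap3 and Stac were not. Between the pull-downs 9 of the 21 were higher with VTA and 0 lower (limma; 0.418% and 2.05% of all genes), with a median of 0.46. Between the inputs 0 passed in either direction, the median being 0.13. In the VTA enrichment 7 were higher and 1 lower, against 5.44% and 25.9% of all genes, and in the NAC enrichment 1 was higher and 4 lower, against 4.34% and 8.01%. In the difference itself 17 of 21 lay above 0 (32.1% of all genes). At an unadjusted p under 0.05, 12 were higher and 1 lower (2.38% and 9.65% of all genes). In the adjusted test 0 passed, and with the intensity trend 2 did, Pou3f1 and Tcerg1l.

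The members with the largest differences had their highest levels in the VTA pull-downs. Tcerg1l read 8.01 and 8.11 in the VTA pull-downs, 6.95 and 6.72 in the NAC pull-downs, 7.45 and 7.32 in the VTA inputs and 7.21 and 7.04 in the NAC inputs. Pou3f1 read 7.79 and 8.10 in the VTA pull-downs and 6.95 to 7.14 on the other 6 arrays. Chst8 read 8.70 and 8.84 in the VTA pull-downs and 7.58 to 7.91 elsewhere. In all 3 genes the VTA pull-downs were the highest arrays and did not overlap with any other group.

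The class-defining transcription factor gene Fezf2 read 10.16 and 10.24 in the VTA pull-downs and 9.61 to 9.77 on the other 6 arrays, with a difference of 0.54 (SE 0.14, adjusted p = 0.26). The VTA pull-down was higher than its input by 0.51 (adjusted p = 0.00581), and the NAC pull-down stood at -0.03 against its own. Bcl11b read 8.82 and 9.0 in the VTA pull-downs, 8.27 and 8.10 in the NAC pull-downs and 8.39 to 8.64 in the inputs, with a difference of 0.55 (SE 0.15, adjusted p = 0.272). Its pull-downs differed by 0.73 between targets (adjusted p = 0.00502) and its inputs by 0.18. The natriuretic peptide clearance receptor gene Npr3 at 0.60, the thyroid hormone-binding protein gene Crym at 0.58, the transcriptional repressor gene Bcl6 at 0.58, Parm1 at 0.50 and the ETS factor gene Etv5 at 0.44 lay in the same range without passing.

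Not every member followed. Pcp4, a calmodulin-binding peptide gene used as a deep-layer marker, had a difference of -0.44 (adjusted p = 0.36): it read 12.73 and 12.59 in the NAC pull-downs, 12.30 and 12.31 in the VTA pull-downs and 11.98 to 12.28 in the inputs, so both pull-downs exceeded every input and those of NAC were the higher. The neurofilament genes Nefl at -0.08 and Nefh at -0.06, and Tshz2 at -0.04, were the other 3 members below 0. The median of the list stayed between 0.28 and 0.46 with each array left out.

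**Figure D3:**
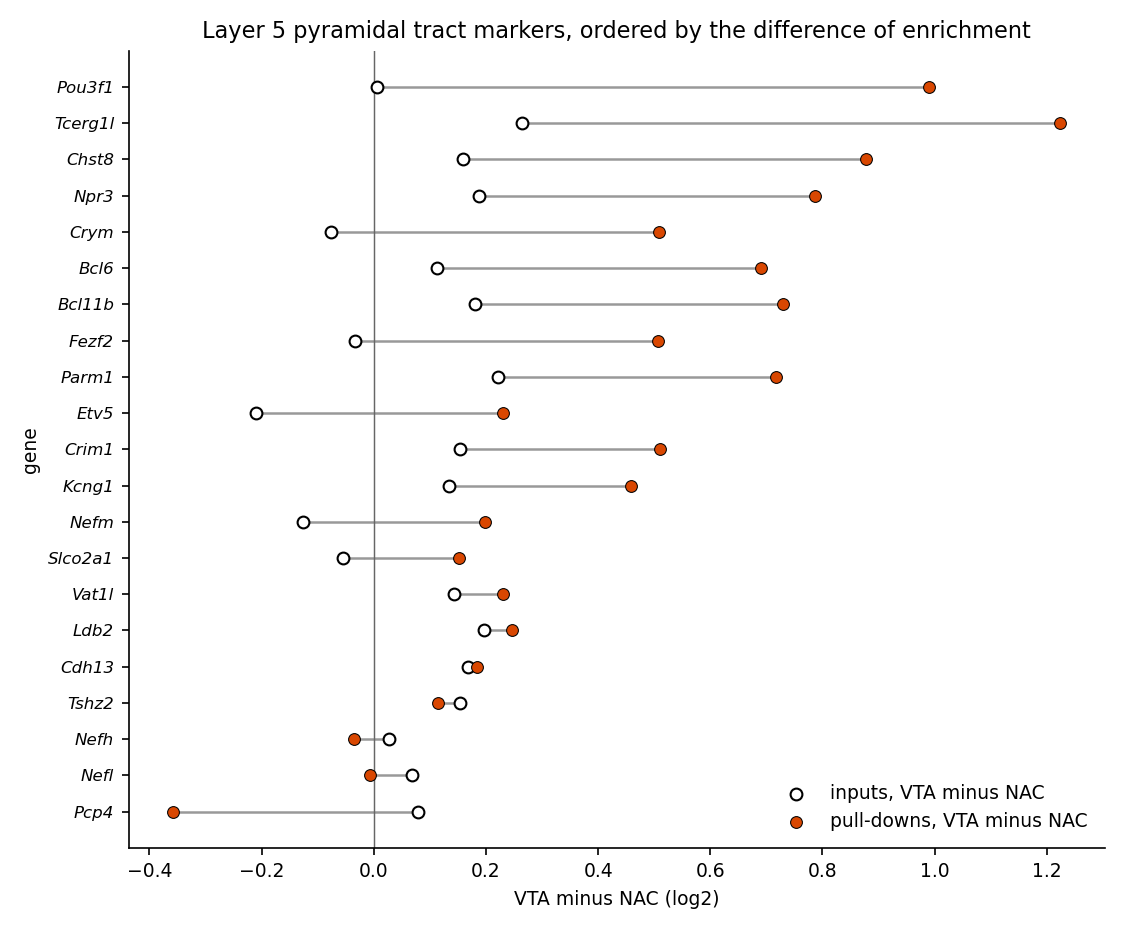
VTA-minus-NAC difference (log2) of the 21 tested layer 5 pyramidal tract markers in the inputs (open points) and the pull-downs (filled points), each from means of 2 and 2 arrays; the line between them is the difference of enrichment, by which genes are ordered. Filled points lie to the right of open ones in 17 genes, with medians of 0.46 in the pull-downs and 0.13 in the inputs.

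Markers of the intratelencephalic classes had medians near that of all genes, -0.09. The 10 tested layer 5 intratelencephalic markers had a median difference of -0.15, with 2 above 0; 0 passed the limma test in the difference and 1 was lower at an unadjusted p under 0.05, Deptor, an inhibitor of mTOR signalling, at -0.76 (adjusted p = 0.29). Its VTA pull-downs, at 7.68 and 8.31, were apart from each other. Etv1 of the same list was near 0 at -0.02 (0.04 with arrays centred or quantile normalized). The 16 tested layer 2/3 markers had a median of -0.13 with 6 above 0, and Dkkl1 was the only one called; the upper-layer factor genes Cux1 and Cux2 stood at -0.14 and -0.15. The 17 layer 6 and subplate markers had a median of -0.06 (0.03 after quantile normalization) and the 16 glutamatergic neuron genes one of -0.11, with 0 called in either list. At an unadjusted p under 0.05, 1 and 0 of them were higher and 1 and 2 lower (2.38% and 9.65% of all genes). Slc30a3, the vesicular zinc transporter of cortical glutamatergic terminals, stood at -0.55 (adjusted p = 0.249), the lowest value of the latter list, and passed with the intensity trend (adjusted p = 0.0406). Slc17a7, the vesicular glutamate transporter gene, was at -0.06 and Camk2a at 0.00.

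Interferon-induced and antigen presentation genes were mostly lower with VTA, in inputs and in pull-downs alike. Of 29 tested interferon-induced genes, 25 were lower with VTA in the pull-downs and 22 in the inputs (2.05% and 1.38% of all genes), with medians of -1.22 and -0.94. Their median difference of enrichment was 0.02. Of 17 antigen presentation genes, 14 were lower in the pull-downs and 14 in the inputs, with medians of -1.02 and -1.26 and a median difference of enrichment of 0.10 (0.21 after quantile normalization), 14 of 17 lying above 0 against 32.1% of all genes. None of the genes of either list passed the limma test of the difference. At an unadjusted p under 0.05, 1 interferon-induced gene was higher and 1 lower, and 3 antigen presentation genes were higher and 1 lower (2.38% and 9.65% of all genes).

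H2-Ab1, a class II major histocompatibility chain, shows the size of the shared part. It read 10.40 and 10.19 in the NAC inputs and 7.01 and 7.07 in the VTA inputs, a difference of -3.25, and 9.77 and 9.67 in the NAC pull-downs and 6.64 and 6.43 in the VTA pull-downs, a difference of -3.18. Its difference of enrichment was 0.07 (SE 0.16, adjusted p = 0.89). The interferon-induced GTPase gene Igtp differed by -2.84 in the inputs and -2.76 in the pull-downs, with a difference of enrichment of 0.09, and the class I light chain gene B2m by -1.05 and -1.02, with 0.03. All NAC arrays of these 3 genes were above all VTA arrays.

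Of 22 T cell and plasma cell markers with a probe set 12 were tested. A gene bright enough on the NAC arrays alone had to differ between targets, so these counts do not stand for the whole list; the median difference over all 22 was also 0.33. Of the 12, 9 were lower with VTA in the pull-downs and 11 in the inputs (2.05% and 1.38% of all genes), with medians of -0.72 and -1.50. Their median difference of enrichment was 0.33, the second highest of the 36 lists, with 11 above 0 and 5 higher at an unadjusted p under 0.05 (2.38% of all genes); Ighg3 was the only one called. The summed level of all 22 was 11.5 to 11.6 in the NAC inputs and 11.1 to 11.3 in the NAC pull-downs, and 10.3 in both VTA inputs against 10.2 to 10.3 in the VTA pull-downs. Ighg3 is itself on this list, so the list and the gene are not separate observations. The part of such cells in its positive value was not tested. Jchain, which joins secreted immunoglobulins, read 7.18 and 6.68 in the NAC inputs, 6.57 and 6.33 in the NAC pull-downs and 3.98 to 4.24 on the 4 VTA arrays.

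**Figure D4:**
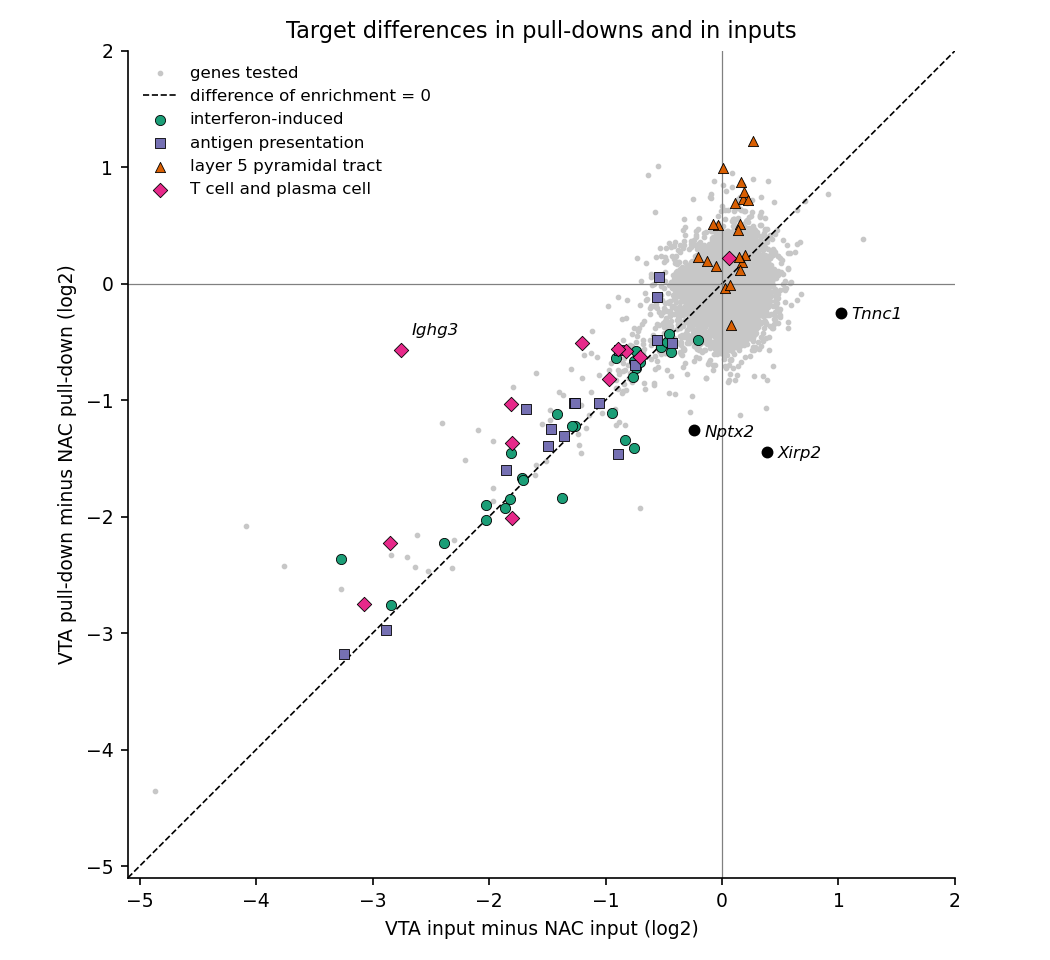
VTA-minus-NAC difference (log2) of the inputs on the horizontal axis and of the pull-downs on the vertical axis for the 11712 genes tested (grey), with 4 gene lists coloured and 4 called genes named; the vertical distance from the dashed line is the difference of enrichment. Interferon-induced and antigen presentation genes run along the line down to about -3 on both axes (H2-Ab1 at -3.25 and -3.18), while 17 of 21 pyramidal tract markers sit above it, with input differences near 0.

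Microglia markers followed the same order less steeply: of 22 tested, 10 were lower and 1 higher with VTA in the inputs (1.38% and 0.12% of all genes), and 9 lower and 1 higher in the pull-downs (2.05% and 0.418%). Their median difference of enrichment was 0.12, with 18 above 0, 3 higher and 0 lower at an unadjusted p under 0.05, and 0 called by limma. Tmem119 stood at 0.42, Sall1 at 0.39 and Cx3cr1 at 0.13. Astrocyte markers had a median of 0.15 (17 of 20 above 0), oligodendrocyte markers 0.08 (14 of 19) and interneuron markers 0.04 (16 of 26), with 0 called in each; at an unadjusted p under 0.05, 1, 1 and 2 of them were higher and 1, 1 and 1 lower. Of all genes, 32.1% lay above 0, and 2.38% were higher and 9.65% lower at that p. Mog was at 0.32, Aqp4 at 0.03, Gad1 at 0.18, Gad2 at 0.05 and the endothelial junction gene Cldn5 at 0.42, all with adjusted p of at least 0.433.

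Rpl10a, a gene of the large ribosomal subunit, was higher in the pull-down in both targets, by 1.83 with VTA (adjusted p = 0.000258) and 1.15 with NAC (adjusted p = 0.00235). The pull-downs read 12.05 and 12.11 with NAC and 11.94 and 11.95 with VTA, while the inputs read 10.92 and 10.94 with NAC and 9.87 and 10.35 with VTA. The difference of enrichment, 0.68 (SE 0.20, adjusted p = 0.272), lay in the inputs, which differed by -0.82 (adjusted p = 0.0133). It was 0.44 without VTA input 1. The 47 tested cytosolic ribosomal protein genes had a median difference of 0.04.

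Of 28 tested immediate early genes, which neurons switch on within minutes of activity, 7 were lower with VTA in the pull-downs and 5 in the inputs, against 2.05% and 1.38% of all genes, and the others did not pass. Fos differed by -1.07 in the pull-downs and -0.92 in the inputs, and its difference of enrichment was -0.16 (adjusted p = 0.826; 0.14 without NAC input 1). The activity-dependent transcription factor gene Npas4 differed by -1.38 and -1.23, with a difference of enrichment of -0.15. The median of the 28 was 0.02, and Nptx2 was the only one called. Ptgs2, the inducible cyclooxygenase gene, resembled Nptx2 in its parts, with -0.59 in the pull-downs and 0.01 in the inputs, at -0.59 in the difference (SE 0.14, adjusted p = 0.24).

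The dopamine receptor genes Drd1 and Drd2 stood at -0.30 and -0.27 (adjusted p = 0.475 and 0.505). For Drd1 the pull-downs of both targets, at 6.15 to 6.35, were below all 4 inputs, at 6.75 to 7.20. The 36 tested receptors for monoamines, acetylcholine and peptides had a median of -0.12, and the 32 glutamate and GABA receptor genes one of -0.06 (0.01 after quantile normalization), with 0 called. At an unadjusted p under 0.05, 1 was higher and 3 lower in each list (2.38% and 9.65% of all genes).

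None of the 72 tested genes of axon guidance and cell adhesion passed the limma test. Of them, 12 were lower and 3 higher at an unadjusted p under 0.05 (9.65% and 2.38% of all genes), and the median was -0.07 (0.01 after quantile normalization). The cadherin genes Cdh10 and Cdh12 stood at -0.68 and -0.59, the guidance ligand gene Slit2 at -0.53, the netrin receptor gene Unc5d at -0.48 and the ephrin receptor gene Epha4 at -0.46. The Slit receptor gene Robo1 at 0.47 and the ephrin gene Efnb3 at 0.43 lay on the other side. Robo1 read 9.39 on both VTA pull-downs, 8.83 and 8.69 in the NAC pull-downs and 9.02 to 9.22 in the inputs.

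**Figure D5:**
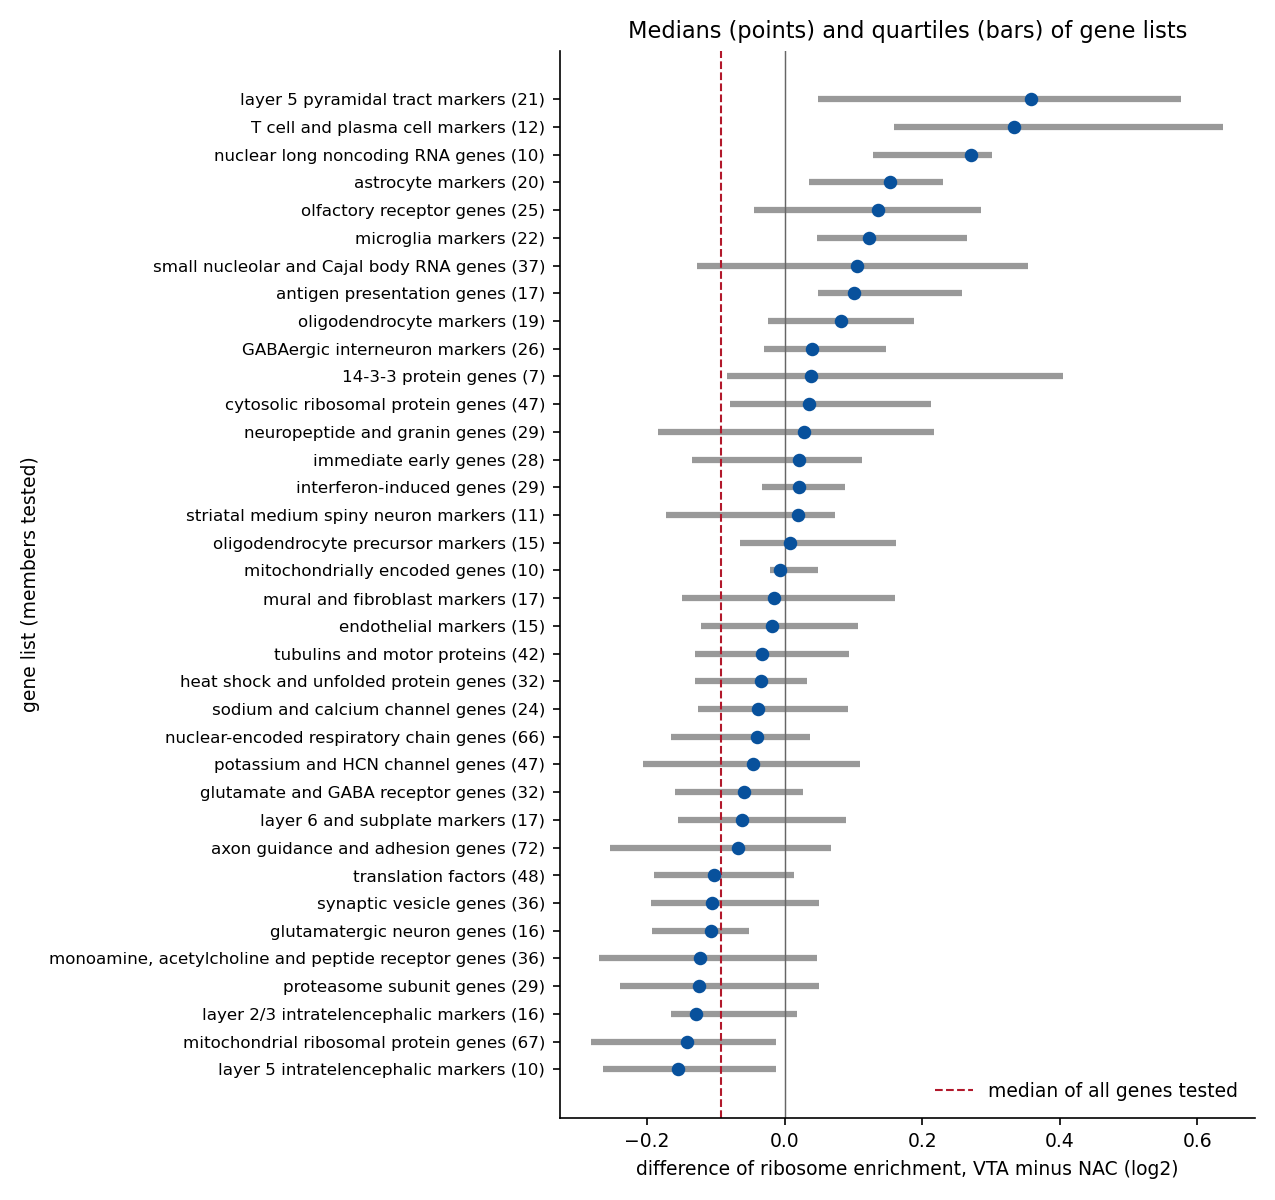
Median (points) and quartiles (bars) of the difference of ribosome enrichment (log2) over the tested members of 36 gene lists, with the number tested in brackets; the dashed line is the median of all 11712 genes, -0.09. Layer 5 pyramidal tract markers lie highest at 0.36 and layer 5 intratelencephalic markers lowest at -0.15.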

How the data were processed

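RNA of 8 samples, 4 groups of 2, was measured on Affymetrix arrays. The deposited table holds values on a log2 scale, and the authors made them with Transcriptome Analysis Console, per the submitters' processing notes; its version and settings are not given here. A constant scaling error between pull-down and input would shift all genes alike, so other scalings were tried. Array values carry no read depth, and the number of arrays limits the precision.

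Gene symbols came from the array platform's annotation; 1814 with several symbols and 16010 with none were left out, and 23328 of the 23521 used matched the RefSeq gene table of GRCm38.p6. A gene took its probe set with the highest mean and was tested where at least 2 of 8 arrays exceeded that array's median over named genes. A model with 4 group means was fitted with limma 3.58.1 (R 4.3.3; lmFit, eBayes; 4 residual and 6.07 prior degrees of freedom). Tests were two-sided with Benjamini-Hochberg adjustment over 11712 genes and a threshold of 0.05. The steps were tested on simulated data.

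Named were the 12 called genes in each direction with the largest difference and measured levels (filled by smallest p), up to 4 dim ones, up to 6 with opposite enrichments, up to 3 called per list, and 16 fixed genes. Other genes of the 36 lists, and the remaining genes with opposite enrichments, were chosen after their values were seen. The comparison, genes and lists were chosen with earlier results of these data known. Alternatives were array centring, quantile normalization, no or a stricter filter (6 of 8 arrays), the mean of a gene's probe sets, an intensity trend, replicate blocks and leaving out each array. Motifs were matched in RefSeq promoters with Python 3.11.15, and figures drawn with matplotlib 3.10.9.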

Additional observations from a re-analysis of the deposited data

Results flagged for a closer look

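For 8 genes the enrichment after VTA injection differed from that after NAC injection by a test of that difference (limma, adjusted p under 0.05). The differences of enrichment (log2) were -1.83 for Xirp2, -1.45 for Dynlrb2, -1.27 for Tnnc1, -1.21 for Gm10139, -1.15 for Dkkl1, -1.02 for Nptx2, -0.91 for 1700007K13Rik and 2.19 for Ighg3. Dynlrb2 and Ighg3 lay under the array medians in 3 of 4 groups. Groups of 2 arrays are too small to single out an outlying array.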

How the results depend on the processing

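Xirp2 kept its sign and its call under all 8 alternatives and with each array left out, and no called gene changed sign. Its difference went from -1.83 to -0.99 with the mean of its probe sets. The number of genes called in the difference of enrichment (8; 1 higher, 7 lower) was 8 with arrays centred (2 higher), 2 after quantile normalization (0 higher, 2 lower), 1 with no filter (0 higher, 1 lower), 6 with the stricter filter (0 higher), 7 with the mean of probe sets (0 higher), 30 with an intensity trend (9 higher, 21 lower) and 1 to 8 with an array left out (0 to 2 higher, 1 to 7 lower). All 8 genes were among the 30. Centring moved the median of all genes to -0.04 and quantile normalization to -0.00278. With a replicate block, within target or over all groups, 1 gene was called (0 higher, 1 lower), Xirp2. The labels do not trace arrays to animals, so whether same-numbered arrays form pairs is not known. Deviations of same-numbered pull-down and input correlated at 0.30 for NAC and -0.02 for VTA. Those of the 2 pull-downs correlated at -0.13 and those of the 2 inputs at 0.22. With 2 arrays per group, these correlations across genes cannot decide the pairing.

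Called in the VTA enrichment were 3671 genes, 1907 with no filter and 415 to 3713 with an array left out; in the NAC enrichment 1446, 105 with no filter and 149 to 1848 with an array left out. Between the pull-downs 289 were called, 113 with no filter, 532 with the trend and 151 to 335 with an array left out, and between the inputs 176, 104 with the stricter filter and 100 to 206 with an array left out. A block within target gives no value for these 2 comparisons, which lie between targets. Of the genes near 0, Etv1 (-0.02) was 0.0365 when centred, 0.0401 after quantile normalization and -0.13 to 0.10 with an array left out. With an array left out Camk2a lay between -0.0203 and 0.027, Gad2 between -0.13 and 0.23, Aqp4 between -0.13 and 0.19 and Fos between -0.45 and 0.14. The causes were not tested.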

Other observations

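No mitochondrial ribosomal protein gene passed the test of the difference. Of 67 tested mitochondrial ribosomal protein genes, 52 were below 0, 8 were lower and 0 higher at an unadjusted p under 0.05 (9.65% and 2.38% of all genes), and 0 were called (limma). Their median was -0.14, near the -0.09 of all genes, and -0.04 after quantile normalization. Mrpl32 stood at -0.73 (SE 0.17, adjusted p = 0.25) and Mrps31 at -0.50. The list was higher in the pull-downs of both targets, with 20 members higher and 2 lower than input after VTA injection and 26 higher and 0 lower after NAC injection, and with median enrichments of 0.16 and 0.31. Of all genes, 5.44% were higher and 25.9% lower than input after VTA injection, and 4.34% higher and 8.01% lower after NAC injection. Nuclear-encoded respiratory chain genes, with 32 and 30 of 66 higher than input, had a median difference of -0.04 (0.01 with arrays centred, 0.05 after quantile normalization).

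None of the tested genes on the lists of nuclear long noncoding RNAs and of small nucleolar and Cajal body RNAs was called (limma). The 10 tested nuclear long noncoding RNA genes had a median difference of 0.27 (0.15 over all 13 with a probe set) with 8 above 0. At an unadjusted p under 0.05, 3 were higher (2.38% of all genes), and Miat stood at 0.44 and Malat1 at 0.30. Small nucleolar and Cajal body RNAs were mostly lower in the pull-downs than in the inputs, 23 of 37 tested in each target (25.9% of all genes with VTA and 8.01% with NAC). Their median difference between targets was 0.11 (0.04 over all 78 with a probe set, and 0.03 to 0.21 with an array left out). Their values were wide, from -0.83 (Snora73b) to 1.56 (Snord22), with 6 higher and 1 lower at an unadjusted p under 0.05 (2.38% and 9.65% of all genes). The mitochondrially encoded ND6 stood at 1.19 (adjusted p = 0.34), apart from the other 9 tested genes of its list, between -0.03 and 0.08; its NAC pull-downs, at 10.49 and 11.45, differed by more than those of VTA, at 11.55 and 11.61.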
